A study of Homo sapiens with 29 samples.

Results

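The 41 genes described here are the transcription factor NRF2 (encoded by NFE2L2), its repressor KEAP1 and 39 genes of antioxidant defence, most of them known NRF2 targets. They are a fixed list of gene names, and no threshold on a measured value decided which gene is a member. The list was, however, chosen with earlier results of these data known. Shares of members set beside shares of all genes are therefore descriptions and not independent contrasts. All 41 were among the 9085 genes that averaged at least 10 TPM (transcripts scaled to the same total per library, a level per transcript length) over the 29 libraries, of 35544 genes summed from the transcript table. GCLM, the marker of the group, was between 105 and 182 TPM in every library.

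The libraries are polyA RNA-seq of PC9, an epithelial lung adenocarcinoma cell line with a mutant EGFR that depends on this receptor. The study asked how single tyrosines of the receptor tyrosine kinase AXL shape what AXL does when EGFR is inhibited. Dishes were left untreated, given the EGFR inhibitor erlotinib (E), or given erlotinib with AF154, an antibody that activates AXL (EA), and both treatments lasted 24 h. There was 1 library per line and treatment: 10 untreated, 10 with E and 9 with EA, since the knockout has no EA library here. The 10 lines are parental PC9 (PAR); an AXL knockout made from it by CRISPR/Cas9 with a guide to the kinase domain (KO); and 8 lines of knockout cells transduced by lentivirus with AXL: the wild-type receptor (WT), a receptor without kinase activity (KD, for kinase dead), or receptors in which Y634, Y643, Y698, Y726, Y750 or Y821 was changed to phenylalanine. The transduced cells were sorted as populations, and the study's text states that some knockout cells remained in each. In the comparisons of treatments, lines stand in for replicates. A p-value there measures how evenly lines responded and not the spread between repeated dishes of a line. In the comparison between lines, dishes of a line given different treatments stand in as its repeats.

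NRF2 is a basic leucine zipper factor that pairs with small MAF proteins at antioxidant response elements. KEAP1 binds it in the cytoplasm and passes it to a ubiquitin ligase for destruction, and oxidants or electrophiles that modify KEAP1 let NRF2 accumulate. Its control is thus largely at the protein, which RNA-seq does not see. Its targets make glutathione, reduce thioredoxin and peroxides, supply NADPH, store iron and detoxify quinones and aldehydes. In lung adenocarcinoma the pathway is known for mutations of KEAP1 and NFE2L2 that keep it switched on.

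Promoters of 31 of the 41 genes were in the RefSeq table used (GRCh38.p14), each as 250 bases before to 50 bases after a start site. The core of the antioxidant response element, TGACNNNGC on either strand, was in at least 1 promoter of 10 of these 31 genes (32.3%) and in 13.3% of all 35116 promoters. A tighter form, TGACTCAGC, which contains the AP-1 motif TGACTCA, was in promoters of ME1 and GSTP1 (6.45% of the 31) and in 0.561% of all promoters. A gene can have several promoters in the table, so that shares of genes and shares of promoters are not the same measure. The matches below are a selection, from GCLM and ME1, which were higher with AF154, TXNRD1, GSTP1 and IDH1, which were higher with erlotinib, and KEAP1. Each is printed 5′ to 3′ on the strand that reads the motif, with the 9 bases of the match in capitals.
GCLM, chr1:93909446-93909474 (+), match from 34 bases before the start: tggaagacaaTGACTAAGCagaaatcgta
ME1, chr6:83431170-83431198 (-), match from 137 bases before the start: tctcctgccaTGACTCAGCgcttctcgca
TXNRD1, chr12:104215670-104215698 (+), match from 99 bases before the start: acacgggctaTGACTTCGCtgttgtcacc
GSTP1, chr11:67583736-67583764 (+), match from 66 bases before the start: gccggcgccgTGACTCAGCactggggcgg
IDH1, chr2:208255196-208255224 (-), match from 143 bases before the start: cccctctcgcTGACTCCGCccatcccacg
KEAP1, chr19:10502784-10502812 (+), match from 31 bases before the start: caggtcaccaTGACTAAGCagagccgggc
The other genes with a match were PGD, EPHX1, MGST1 and GPX2. TXNRD1, ME1 and KEAP1 had further matches that are not printed. AKR1C1 and ABCC2, also higher with AF154, were among the 31 genes and had no match. The same held for GCLC, NQO1, AKR1C3 and GPX4, which were higher with erlotinib. These are letters in a window and not measured binding sites.

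AXL, the edited gene, was at 92.4 TPM untreated and 79.3 TPM with E in the KO libraries and between 217 and 852 TPM in all others. Mitochondrially encoded transcripts took 11.4% to 17.4% of TPM. In PAR they took 17.4% with E, against 12.3% to 14.2% in the other lines. All 6 epithelial markers were expressed, with a summed level of 8155 to 11180 TPM. Of 5 fibroblast markers 1, COL1A1, averaged at least 10 TPM. Their summed level was 16.2 to 36.6 TPM untreated and 37.9 to 62.6 TPM with E, and its part in the results was not tested. Blood markers summed to at most 1.78 TPM, with 1 of 4 at 0 in all libraries, and endothelial markers to at most 10.2 TPM. TPM keeps no read depth, so the depth is unknown and no counting interval is given. In bulk libraries, less RNA per cell and fewer cells of a kind cannot be told apart.

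The first comparison was erlotinib against untreated cells over 10 line pairs. Erlotinib moved the antioxidant genes in both directions rather than as a block. Ferritin, the members grouped under NADPH supply, GPX4, NQO1 and most aldo-keto reductases rose together with NFE2L2 itself. Thioredoxin, the peroxiredoxins PRDX1 and PRDX3, both superoxide dismutases, GSS and the exporter ABCC2 fell. Past an adjusted p of 0.05 (limma on log2(TPM + 1), Benjamini-Hochberg over all genes tested), 34 of 41 members differed, or 82.9%, against 79.0% of all genes tested. Higher calls made up 22 members (53.7%, against 36.4% of all genes) and lower calls 12 (29.3%, against 42.6%). The split depended on scaling. With libraries centred on their medians, 25 members were higher and 9 lower, beside 3642 and 3533 of all genes, and with quantile normalization 26 and 8, beside 3607 and 3601. The median change of the members was 0.18 on the log2 scale, and that of all genes -0.04. With 27 members (65.9%) the 10 lines all moved the same way, as did 57.6% of all genes. With 17 members (41.5%) the E libraries did not overlap the untreated ones, as with 36.5% of all genes. Changes below are on the log2(TPM + 1) scale with their standard error over 10 line pairs.

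**Figure D1:**
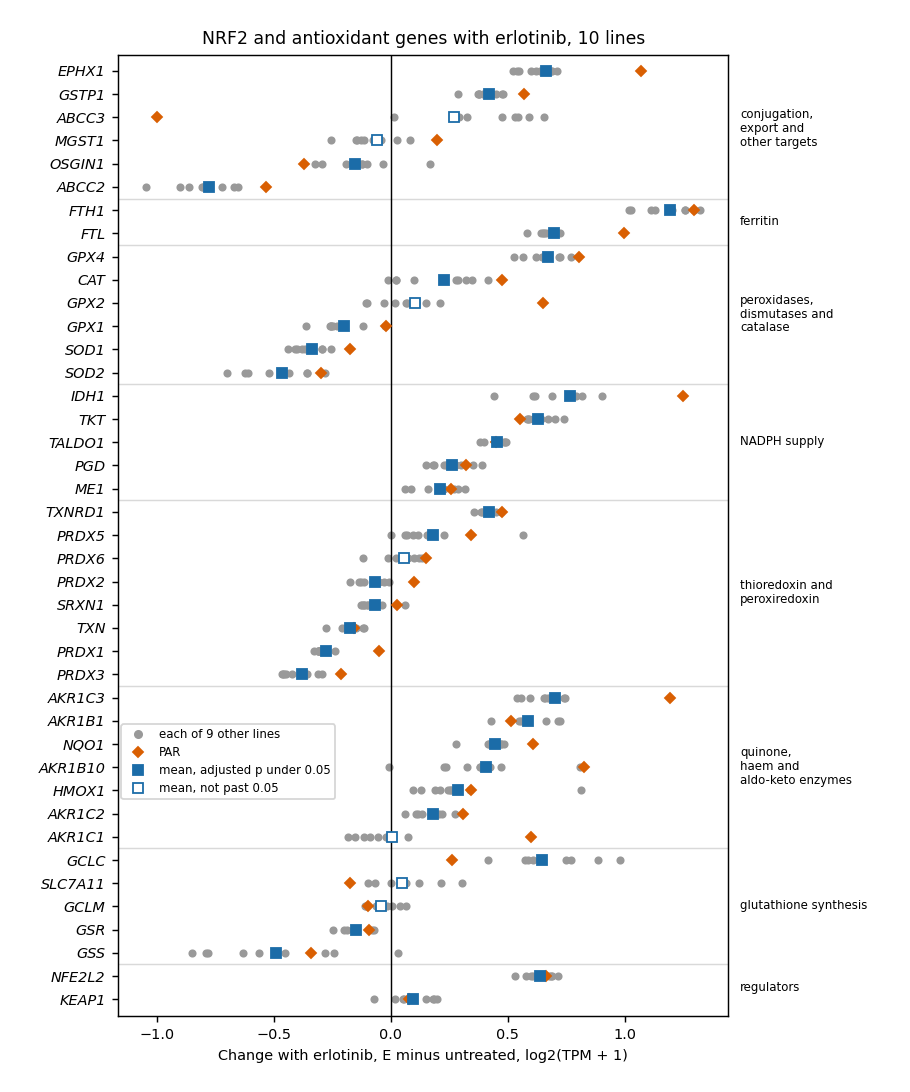
Change of each of the 41 genes with erlotinib, as log2(TPM + 1) with E minus untreated, in the 10 lines. Grey points are 9 lines, orange diamonds PAR, and squares the mean of 10 lines, filled where the limma test with Benjamini-Hochberg adjustment passed 0.05; 22 genes passed as higher and 12 as lower, and PAR lies apart from the other lines for AKR1C1, AKR1C3, ABCC3 and EPHX1.

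NFE2L2 (ENSG00000116044, chromosome 2) rose in every line. Its level was lowest at 112, median 121 and highest at 128 TPM untreated, and 174, 187 and 206 TPM with E, so that the treatments did not overlap. The change was 0.64 ± 0.027 (n = 10, adjusted p = 1.7e-11). KEAP1 (ENSG00000079999, chromosome 19) ran from 77.9 to 110 TPM untreated, with a median of 101 TPM, and from 82.4 to 114 TPM with E, with a median of 108 TPM. These ranges overlapped almost fully, and PAR was the lowest line in both. KEAP1 passed the test with a small rise of 0.09 ± 0.032 (adjusted p = 0.0162, higher in 9 of 10 lines). That call was lost without pairing by line (adjusted p = 0.16). The ratio of NFE2L2 to KEAP1 TPM was higher with E in 10 of 10 lines, at a mean of 1.22 ± 0.123 (SD) untreated and 1.78 ± 0.184 with E.

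The subunits of glutamate-cysteine ligase, the first enzyme of glutathione synthesis, did not move together. GCLC, the catalytic subunit (ENSG00000001084, chromosome 6), had a lowest, median and highest level of 84, 109 and 129 TPM untreated and 152, 168 and 202 TPM with E. Every E library was above every untreated one, with a rise of 0.65 ± 0.058 (adjusted p = 9.67e-08). GCLM, the modifier subunit (ENSG00000023909, chromosome 1), stood at 112, 135 and 155 TPM untreated and at 105, 137 and 145 TPM with E. The treatments overlapped, 3 of 10 lines were higher with E, and the change of -0.04 ± 0.028 did not pass (adjusted p = 0.174). GCLM over GCLC, as a ratio of TPM, was lower with E in 10 of 10 lines, at 1.25 ± 0.201 (SD) untreated and 0.764 ± 0.0677 with E.

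**Figure D2:**
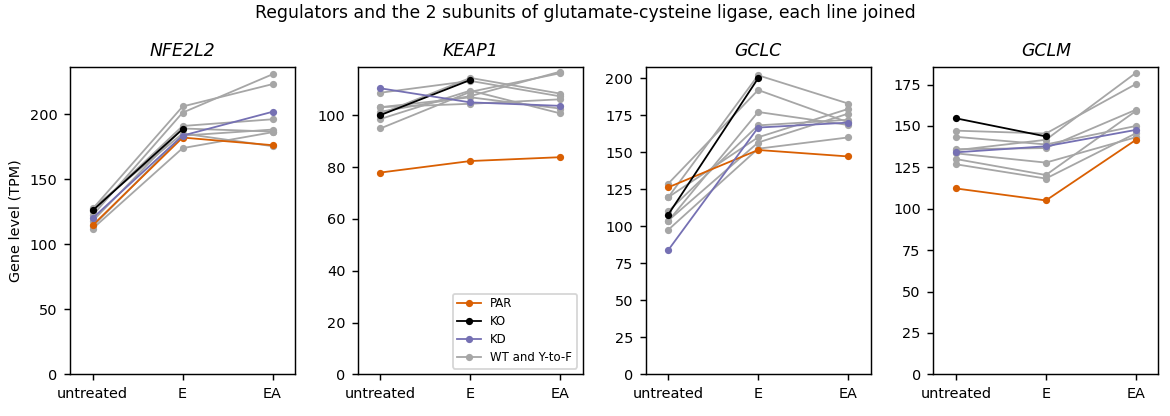
Level in TPM of NFE2L2, KEAP1, GCLC and GCLM in each of the 29 libraries by treatment, with the libraries of a line joined (PAR orange, KO black, KD purple, WT and the 6 Y-to-F lines grey); all axes start at 0. NFE2L2 and GCLC rise in each line with E, GCLM rises in each line between E and EA, and PAR has the lowest KEAP1 and GCLM level in each treatment.

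Of the other 3 members of the glutathione group, 2 fell and 1 did not pass. GSS, glutathione synthetase (ENSG00000100983, chromosome 20), had a lowest, median and highest level of 15.6, 20.6 and 29.6 TPM untreated and 12.2, 15.6 and 17.9 TPM with E. It fell in 9 of 10 lines, with overlap, by 0.49 ± 0.082 on the log2 scale (adjusted p = 6.93e-05). Glutathione reductase, GSR, also fell, by 0.15 ± 0.031 (adjusted p = 0.000455, lower in 10 of 10 lines), a call that was lost under quantile normalization (adjusted p = 0.0955). The cystine transporter subunit SLC7A11 was at 0.05 ± 0.045, higher in 7 of 10 lines, and did not pass (adjusted p = 0.342). It passed as higher with libraries centred on their medians (0.10, adjusted p = 0.0334) and with quantile normalization (0.14, adjusted p = 0.00581).

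All 5 members grouped here under NADPH supply, not all of which make NADPH themselves, rose in 10 of 10 lines. NADPH is the reductant that the glutathione and thioredoxin systems draw on. IDH1, cytosolic isocitrate dehydrogenase (ENSG00000138413, chromosome 2), went from a lowest, median and highest level of 43.4, 52.4 and 66.5 TPM untreated to 84.1, 89.7 and 105 TPM with E. PAR was the lowest line untreated and the highest with E, and no E library overlapped an untreated one. The rise of IDH1 was 0.77 ± 0.06 (adjusted p = 2.03e-08). The pentose phosphate enzymes transketolase (TKT, 0.63 ± 0.024), transaldolase (TALDO1, 0.46 ± 0.022) and phosphogluconate dehydrogenase (PGD, 0.26 ± 0.03) rose, as did malic enzyme (ME1, 0.21 ± 0.034). TKT and TALDO1 also separated the treatments completely.

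Both ferritin genes rose, and ferritin was by far the most abundant product among the members. FTH1, the heavy chain (ENSG00000167996, chromosome 11), had a lowest, median and highest level of 7657, 8854 and 10413 TPM untreated and 18832, 20752 and 22856 TPM with E. Its change of 1.19 ± 0.035 was the largest in size of any member (adjusted p = 5.49e-13). FTL, the light chain (ENSG00000087086, chromosome 19), went from 5376, 5657 and 6048 TPM to 8772, 9057 and 12084 TPM, a rise of 0.70 ± 0.035 (adjusted p = 1.01e-10). For neither gene did the treatments overlap. Together the ferritin genes took a mean of 1.48% of all TPM untreated and 2.996% with E. The ratio of FTH1 to FTL TPM was higher with E in 10 of 10 lines.

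In the quinone, haem and aldo-keto group 6 of 7 members rose. NQO1, the quinone reductase often read as an NRF2 target, rose in every line by 0.45 ± 0.028 (adjusted p = 1.38e-09), with medians of 649 TPM untreated and 889 TPM with E. HMOX1, haem oxygenase, rose by 0.29 ± 0.058 (adjusted p = 0.000372). The highest difference, 0.81, was in WT. Of the aldo-keto reductases, AKR1C3 (ENSG00000196139, chromosome 10) rose most: its lowest, median and highest level was 552, 665 and 883 TPM untreated and 926, 1080 and 1497 TPM with E. These ranges did not touch, and the change was 0.70 ± 0.051 (adjusted p = 7.38e-09). AKR1B1 (0.59 ± 0.03), AKR1B10 (0.41 ± 0.07) and AKR1C2 (0.18 ± 0.027) rose as well. AKR1C1 did not pass, at 0.01 ± 0.06 (adjusted p = 0.936). Its sign turned without PAR, without Y750F (-0.0021) and with protein-coding transcripts only (-0.0237). The difference was 0.60 in PAR and between -0.18 and 0.07 in the other 9 lines, and the mean without PAR was -0.06. AKR1C1, AKR1C2 and AKR1C3 are near-identical neighbours on chromosome 10, so the split of reads among them is uncertain. Their summed TPM was 2175 ± 298 (SD) untreated and 2724 ± 320 with E, higher in 10 of 10 lines.

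Of the 8 thioredoxin and peroxiredoxin genes, 2 rose and 5 fell. TXNRD1, the reductase that recharges thioredoxin, was the clear exception, with a rise of 0.42 ± 0.021 in 10 of 10 lines (adjusted p = 1.24e-10), and PRDX5 rose by 0.18 ± 0.046 (adjusted p = 0.00267). Thioredoxin itself (TXN, ENSG00000136810, chromosome 9) had a lowest, median and highest level of 1136, 1217 and 1353 TPM untreated and 961, 1096 and 1188 TPM with E. Its fall of 0.18 ± 0.022 on the log2 scale was seen in 10 of 10 lines (adjusted p = 3.6e-06), although the treatments overlapped. The mitochondrial peroxiredoxin PRDX3 (ENSG00000165672, chromosome 10) went from 110, 120 and 130 TPM to 84.3, 92.2 and 100.1 TPM without overlap, and fell by 0.38 ± 0.032 (adjusted p = 4.86e-08). The cytosolic peroxiredoxin PRDX1 (ENSG00000117450, chromosome 1) went from 1124, 1513 and 1588 TPM to 1085, 1227 and 1281 TPM and fell by 0.28 ± 0.028 (adjusted p = 3.49e-07). The overlap came from PAR, which had the lowest PRDX1 level in both treatments and a difference of -0.05. PRDX2 and sulfiredoxin (SRXN1) passed as lower by 0.07 each (adjusted p = 0.046 and 0.0345), and 7 of 10 fits that left out a line lost each of these calls. The sign of PRDX2 turned under quantile normalization. PRDX6, at 0.06 ± 0.028, did not pass (adjusted p = 0.0798). It passed as higher in 4 of 20 alternatives: without WT (0.08, adjusted p = 0.0109), with libraries centred on their medians (0.10, adjusted p = 0.0165), with quantile normalization (0.14, adjusted p = 0.000915) and with protein-coding transcripts only (0.15, adjusted p = 0.000387).

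Among peroxidases, dismutases and catalase, 2 members rose and 3 fell. GPX4, the glutathione peroxidase that reduces lipid peroxides and guards against ferroptosis (ENSG00000167468, chromosome 19), went from a lowest, median and highest level of 328, 418 and 431 TPM untreated to 574, 652 and 714 TPM with E. The treatments did not overlap, and the rise was 0.67 ± 0.029 (adjusted p = 2.82e-11). Catalase (CAT) rose by 0.23 ± 0.054 (adjusted p = 0.00147). Cytosolic superoxide dismutase (SOD1, ENSG00000142168, chromosome 21) went from 296, 324 and 338 TPM to 241, 253 and 277 TPM and fell by 0.34 ± 0.029 (adjusted p = 5.5e-08). Mitochondrial superoxide dismutase (SOD2, ENSG00000112096, chromosome 6) went from 44.3, 48.5 and 53.4 TPM to 29.7, 35.8 and 38.4 TPM and fell by 0.46 ± 0.047 (adjusted p = 3.73e-07). For both dismutases all E libraries lay below all untreated ones. GPX1 (ENSG00000233276, chromosome 3) ran from 275 to 342 TPM untreated and from 234 to 329 TPM with E, with overlap, and fell by 0.20 ± 0.034 (adjusted p = 9.36e-05). GPX2 did not pass, at 0.10 ± 0.059 (adjusted p = 0.122). Its difference was 0.65 in PAR and between -0.11 and 0.21 in the other 9 lines, and the mean without PAR was 0.04. With quantile normalization it passed as higher (0.18, adjusted p = 0.0137).

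Of the 6 conjugating enzymes, exporters and other targets, 2 rose and 2 fell. EPHX1, microsomal epoxide hydrolase (ENSG00000143819, chromosome 1), went from 85.1, 102 and 120 TPM to 140, 159 and 209 TPM and rose by 0.66 ± 0.046 (adjusted p = 5.11e-09). GSTP1, a glutathione transferase, rose by 0.42 ± 0.027 (adjusted p = 2.1e-09). ABCC2, an exporter of glutathione conjugates (ENSG00000023839, chromosome 10), had the largest fall of any member. Its lowest, median and highest level was 69.7, 76.5 and 85.5 TPM untreated and 37.9, 44.5 and 52.0 TPM with E, with no overlap and a change of -0.78 ± 0.045 (adjusted p = 6.48e-10). OSGIN1 fell by 0.15 ± 0.05 (adjusted p = 0.0122), a call lost under quantile normalization, median centring or no pairing. The related exporter ABCC3 did not pass, at 0.27 ± 0.126 (adjusted p = 0.0616). PAR moved against the rest there, at -1.001, while the other 9 lines lay between 0.02 and 0.66, and without PAR the mean was 0.41 (adjusted p = 1.8e-05). MGST1, a membrane-bound transferase, did not pass either (-0.06 ± 0.038, adjusted p = 0.165), and without PAR it passed as lower, at -0.09 (adjusted p = 0.0211). Leaving out PAR raised the count of members past the threshold from 34 to 36.

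Another 3 lists of related genes were counted in the same fit. Of 14 further genes of NRF2 control, 12 were tested, and 5 were higher and 3 lower with E, with a median change of 0.12. SQSTM1, the autophagy adaptor p62 that competes for KEAP1, rose by 1.07 ± 0.03 in 10 of 10 lines. MAFF, a small MAF gene, fell by 1.57 ± 0.111 on the log2 scale, while the small MAF genes MAFK (0.89 ± 0.09) and MAFG (0.18 ± 0.043) rose. PGAM5, a KEAP1 partner at mitochondria, fell by 1.05 ± 0.057. Of 30 further NRF2 targets, 26 were tested, and 14 were higher and 9 lower, with a median of 0.28. CES1, a carboxylesterase, rose by 1.37 ± 0.064 and the glutathione transferase GSTM4 by 0.95 ± 0.053, and the haem transporter SLC48A1 fell by 0.94 ± 0.042. Of 30 further redox genes, 21 were tested, and 6 were higher and 13 lower, with a median of -0.15. TXNIP, an inhibitor of thioredoxin, rose by 1.75 ± 0.068, GLRX rose by 0.94 ± 0.049 and GLRX2 fell by 0.96 ± 0.051.

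The second comparison asked what AXL activation adds under erlotinib, as EA against E in the 8 lines with a kinase-competent AXL (PAR, WT and the 6 Y-to-F lines). Few of the antioxidant genes passed: GCLM, AKR1C1, ABCC2 and ME1 rose, and no member passed as lower. The 4 calls are 9.76% of the members, against 2.36% of all genes tested, of which 1.88% were called higher and 0.473% lower. The members' median change was 0.04 and that of all genes 0.02. With 7 members (17.1%, against 5.51% of all genes) all 8 lines moved the same way, each time up. This comparison shares its E libraries with the first, so the values of both are given side by side and no correlation between them.

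GCLM, which erlotinib had not shifted past the test, had the largest rise. In the 8 lines its lowest, median and highest level was 105, 132 and 145 TPM with E and 142, 154 and 182 TPM with EA. The ranges overlapped only between 142 and 145 TPM. GCLM rose by 0.28 ± 0.041 (95% interval 0.19 to 0.37, n = 8, adjusted p = 0.0115, higher in 8 of 8 lines). The differences ran from 0.11 in Y698F to 0.43 in PAR. With protein-coding transcripts only the rise was smaller, at 0.18 (adjusted p = 0.0376). Means of GCLM transcripts were taken over all lines with a library, so those with E include KO and KD and those with EA include KD. The non-coding GCLM-203 was at a mean of 20.4 TPM with E (n = 10) and 32.1 TPM with EA (n = 9). The coding GCLM-201 was at 62.2 and 73.2 TPM and the coding GCLM-204 at 47.8 and 49.1 TPM. GCLC, its partner subunit, changed by 0.00 with an interval of -0.10 to 0.10 (adjusted p = 0.998, higher in 4 of 8 lines). The GCLM to GCLC ratio was higher with EA than with E in 9 of 9 lines, KD included, at a mean of 0.921 ± 0.0827 (SD), between its E and its untreated value.

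The other 3 members that passed rose by less. AKR1C1 had a lowest, median and highest level of 457, 573 and 703 TPM with E and 528, 649 and 797 TPM with EA and rose by 0.18 ± 0.031 (adjusted p = 0.0194). ABCC2 went from 37.9, 42.4 and 52.0 TPM to 45.5, 48.5 and 61.5 TPM and rose by 0.19 ± 0.044 (adjusted p = 0.0461), against its fall with erlotinib alone. ME1 (ENSG00000065833, chromosome 6) went from 60.2, 65.5 and 70.2 TPM to 70.3, 73.3 and 78.6 TPM and rose by 0.16 ± 0.038 (adjusted p = 0.0476). Each was higher in 8 of 8 lines, and ME1 was the only member whose EA and E libraries did not overlap (2.44%, against 0.264% of all genes). The summed AKR1C1, AKR1C2 and AKR1C3 level was higher with EA in 9 of 9 lines, KD included. TPM divides by transcript length, so this sum is not free of the split of reads.

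These calls rested more on single lines than most of those with erlotinib. GCLM kept its call in 7 of 8 fits that left out a line (adjusted p = 0.0553 without Y634F), AKR1C1 in 6 of 8 (lost without Y634F and without Y643F, up to 0.0649), and ABCC2 and ME1 in none (up to 0.118 and 0.135). Without Y634F, 10 of all genes and none of the members passed. Without pairing by line no member passed.

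Neither regulator passed: NFE2L2 changed by 0.04 (interval -0.04 to 0.12, adjusted p = 0.53) and KEAP1 by -0.01 (-0.09 to 0.07, adjusted p = 0.912). GSR (0.15, adjusted p = 0.0733), SLC7A11 (0.17, adjusted p = 0.0661) and AKR1C2 (0.10, adjusted p = 0.0759) were higher in 8 of 8 lines without passing. With protein-coding transcripts only, GSR (adjusted p = 0.0376) and AKR1C2 (adjusted p = 0.045) passed as higher. AKR1C2 also passed with quantile normalization (adjusted p = 0.0468) and without mitochondrial genes (adjusted p = 0.0402). SLC7A11 passed in 0 of 18 alternatives. NQO1 and TXNRD1 stood at 0.02 (-0.04 to 0.09) and 0.01 (-0.05 to 0.07). FTH1 was at -0.17 (-0.29 to -0.06) and lower in 7 of 8 lines but did not pass (adjusted p = 0.103). Its levels ran from 18832 to 21447 TPM with E and from 14166 to 20882 TPM with EA. None of the tested genes of the 3 further lists passed in this comparison.

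The KD line, whose AXL lacks kinase activity, has a single E and EA pair and was outside the fit. Its differences were 0.099 for GCLM and 0.038 for ME1. Both were below all 8 competent lines, but only just below the lowest of them, Y698F (0.111 and 0.050). The KD differences of 0.15 for AKR1C1 and 0.07 for ABCC2 were within the range of the competent lines. With 1 pair, no test of KD against the other lines was possible.

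**Figure D3:**
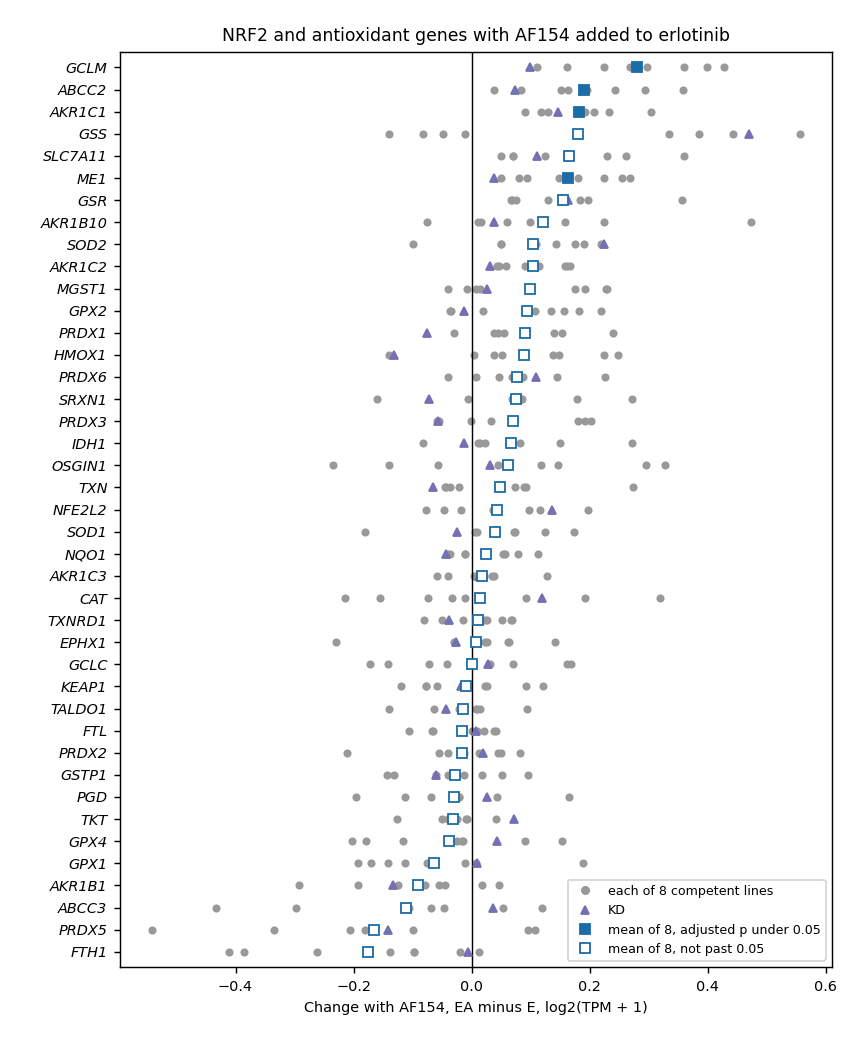
Change of each of the 41 genes when AF154 was added to erlotinib, as log2(TPM + 1) with EA minus E. Grey points are the 8 kinase-competent lines, purple triangles KD, and squares the mean of the 8, filled for the 4 genes that passed an adjusted p of 0.05 (GCLM, ABCC2, AKR1C1 and ME1).

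The third comparison was between the 10 lines, over all 29 libraries with treatment in the model. The lines differed in 22 of 41 members (53.7%), against 32.0% of all genes (2906 of 9085). This count of members depended on scaling. With libraries centred on their medians it was 16, beside 2641 of all genes, and with quantile normalization 15, beside 2659. Without mitochondrial genes it was 17, beside 2844 of 9600. A line has 1 dish per treatment, so this F test measures spread between dishes and cannot tell the AXL genotype from the history of a line. The largest F values belonged to TXNRD1 (20.2, adjusted p = 9.15e-07), NQO1 (14.4, adjusted p = 9.77e-06), PGD (11.2, adjusted p = 5.35e-05), AKR1C2 (11.04, adjusted p = 5.9e-05), AKR1B1 (10.7, adjusted p = 7.52e-05) and AKR1C3 (9.99, adjusted p = 0.000117).

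For the first 3 of these the line that stood apart was PAR. TXNRD1 (ENSG00000198431, chromosome 12) was at 695, 966 and 913 TPM in PAR untreated, with E and with EA, and no other library of the same treatments was below 865, 1131 and 1166 TPM. NQO1 (ENSG00000181019, chromosome 16) was at 437, 666 and 720 TPM in PAR, against at least 636, 815 and 860 TPM elsewhere. PGD (ENSG00000142657, chromosome 1) went the other way, at 155, 194 and 191 TPM in PAR against at most 137, 162 and 155 TPM. PAR was outside all other lines in every treatment for 9 members (22.0%), against 20.5% of all genes, and for 6 members when TPM was rescaled without mitochondrial genes. It was below them for 7 (KEAP1, GCLM, NQO1, TXNRD1, PRDX6, GPX4 and FTH1; 17.1% against 11.8%) and above them for PGD and FTL (4.88% against 8.71%). With E the margins were small for FTH1 (18832 TPM in PAR, 19275 TPM in Y634F) and GPX4 (574.25 TPM in PAR, 574.36 TPM in Y750F). Mitochondrial transcripts took 17.4% of TPM in PAR with E, against at most 14.2% elsewhere, so these ranks depended on scaling. In TPM, FTH1 was thus lowest and FTL highest in the same line. The FTH1 to FTL ratio of PAR was the lowest in each treatment, at 1.27, 1.56 and 1.14. The other lines were between 1.44 and 1.83 untreated, between 2.12 and 2.57 with E, and between 1.88 and 2.46 with EA.

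Without PAR, TXNRD1, NQO1, PGD and KEAP1 lost their calls (adjusted p = 0.193, 0.253, 0.229 and 0.91). What remained past the threshold among the other 9 lines was 12 of 41 members (29.3%), against 6.62% of all genes. All 5 aldo-keto reductases were among them and had the largest F values: AKR1C1 (37.2, adjusted p = 6.05e-07), AKR1C3 (29.3, adjusted p = 2.98e-06), AKR1C2 (16.2, adjusted p = 0.000158), AKR1B1 (10.8, adjusted p = 0.00121) and AKR1B10 (7.78, adjusted p = 0.00659). The rest were GPX1, EPHX1, ABCC3, TXN, TKT, GCLM and MGST1.

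Among the lines other than PAR, KO was highest for all 5 aldo-keto reductases, untreated and with E. AKR1C1 (ENSG00000187134, chromosome 10) was at 864 TPM untreated and 761 TPM with E in KO. In the 8 transduced lines it ran from 434 to 655 TPM untreated and from 457 to 623 TPM with E, with Y750F lowest both times. AKR1B1 (ENSG00000085662, chromosome 7) was at 700.2 and 1023 TPM in KO, and AKR1C2 (ENSG00000151632, chromosome 10) at 1075 and 1122 TPM. KO was above all 8 transduced lines, untreated and with E, for these 3, AKR1B10, AKR1C3 and SRXN1. That is 6 of 41 members (14.6%), against 2.61% of all genes, and KO was below them for no member (4.2% of all genes). This count was made after the values were seen. Untreated, PAR was below KO for all 5 aldo-keto reductases, with 464 TPM for AKR1C1. With E, PAR was above KO for AKR1C3 (1497 against 1283 TPM) and AKR1B10 (116 against 93.5 TPM). It was below KO for AKR1C1 (703 against 761 TPM), AKR1C2 (1080 against 1122 TPM) and AKR1B1 (851 against 1023 TPM). The cause of the KO levels was not tested. Y750F was the lowest of all lines in each treatment for AKR1C1 (434, 457 and 528 TPM) and AKR1B10 (42.5, 59.4 and 66.3 TPM).

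**Figure D4:**
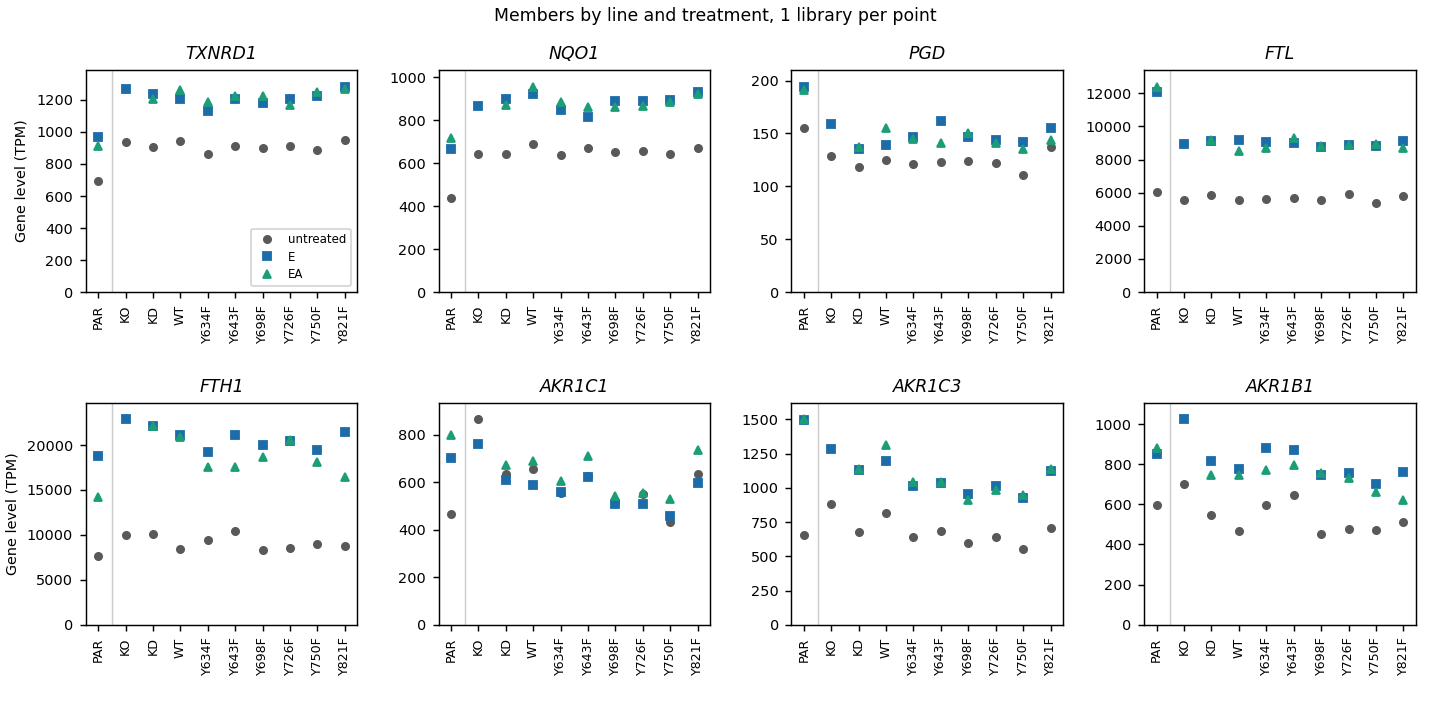
Level in TPM of 8 members by line, with 1 library per point (grey circles untreated, blue squares E, green triangles EA; KO has no EA library) and a thin vertical line beside PAR. PAR is lowest for TXNRD1, NQO1 and FTH1 and highest for PGD and FTL in each treatment, though for FTH1 with E this rank depended on scaling. KO is above the 8 transduced lines for AKR1C1, AKR1C3 and AKR1B1 untreated and with E.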

How the data were processed

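The deposited table holds TPM per transcript for 29 libraries. Per the submitters' processing notes it was made with kallisto on GRCh38 (versions not given in the sources used here), and sequencing and alignment were done by a service company. TPM is scaled by the authors' pipeline to 1000000 per library and keeps no depth. Of 188753 transcripts, 169754 were matched by identifier to GENCODE 29 and summed to 35544 genes. They held 97.0% to 97.3% of each library's TPM. Genes averaging at least 10 TPM (9085) were analysed as log2(TPM + 1) in limma 3.58.1 (R 4.3.3; lmFit, then eBayes with a trend), with Benjamini-Hochberg adjustment over all of them and a threshold of 0.05. E against untreated (20 libraries) and EA against E (16 libraries) had the line as a block, since libraries of a line come from the same cells. The test between lines had treatment as a term. Errors after ± are standard errors of a log2 change or, for levels and ratios, SDs over lines. A gene that did not pass can still have changed, and the smallest change that each fit would call was not tested.

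Genes named with full values were NFE2L2, KEAP1 and GCLM, the 8 largest rises and 8 largest falls with E, all calls with AF154 and the 6 largest F values between lines. Members and lists were chosen with earlier results of these data known. Coordinates of promoter windows are RefSeq's (GRCh38.p14). Promoters of ABCC3, PRDX1, SLC7A11, SOD1, GSS, AKR1B10, GSR, FTH1, PRDX6 and HMOX1 were not used here. Pseudogene copies held at most 3.6% of any member's TPM. Alternatives were other pseudocounts, filters, scalings, transcript sets, no block, and each line left out.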

Additional observations from a re-analysis of the deposited data

Results flagged for a closer look

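In each of 50 groups (25 genes named by rule, each with its differences over the lines in both treatment comparisons) the most extreme line was set against the rest with Dixon's test. It marked 7 groups, where chance alone would mark about 1 in 20 independent groups, or 2.5 of 50. These groups are not independent. They share libraries, and most of the genes were named by their changes in these same data, so 7 cannot be weighed against 2.5. In 6 of the 7 the line was PAR.

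With erlotinib against untreated, PAR stood above the other 9 lines for AKR1C1 (0.60 on the log2 scale, the others -0.18 to 0.07), AKR1C3 (1.19, the others 0.54 to 0.74), EPHX1 (1.07, the others 0.52 to 0.71) and FTL (0.999, the others 0.58 to 0.72). For PRDX1 it differed by -0.0514 while the others lay between -0.33 and -0.24. With EA against E, TXN was at 0.27 in PAR and between -0.05 and 0.09 in the other 7 lines, and EPHX1 was at -0.23 in Y821F and between -0.03 and 0.14 in the others.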

How the results depend on the processing

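With erlotinib against untreated, 34 members passed, and between 32 and 36 with a line left out. EA against E was the most dependent on settings. Its 214 genes (171 higher, 43 lower) became 120 with the KD pair included, 67 at a mean of at least 1 TPM, 6 with no filter, 361 with protein-coding transcripts only and 10 to 188 with a line left out. Its 4 members became 2, 2 and 0 under the first 3 of these and 0 to 2 with a line left out (lowest without Y634F). They became 6 with protein-coding transcripts only and 5 without mitochondrial genes, where 308 of 9600 genes passed. Without the replicate block, that is without pairing libraries of a line, EA against E had 9 genes and 0 members, and E against untreated 6811 genes and 30 members. Centring libraries on their medians gave 133 higher and 72 lower genes for EA against E. Between lines, 2906 genes became 601 to 3016 and 22 members 12 to 22 with a line left out, lowest without PAR in both. Signs that turned all belonged to changes that had not passed or, for PRDX2, had an adjusted p of 0.046. With erlotinib these were AKR1C1 (-0.0604 to 0.0264 with a line left out, lowest without PAR; -0.0237 with protein-coding transcripts only), GCLM (0.00475 centred, 0.00811 quantile), MGST1 (0.0173 quantile) and PRDX2 (0.00863 quantile). With AF154 these were GCLC (-0.0238 to 0.0249 with a line left out, -0.0158 centred), KEAP1 (-0.0277 to 0.00658 with a line left out, 0.00366 without mitochondrial genes) and TXNRD1 (-0.00519 centred). The causes were not tested. Depth is unknown from TPM, and each line has 1 dish per treatment.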

Other observations

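Transcripts of a gene did not all move in step. NFE2L2-202, a minor protein-coding transcript of NFE2L2, went from 5.08 to 13.1 TPM untreated to 21.6 to 31.9 TPM with E, without overlap over 10 lines, and its mean share of the gene went from 7.37% to 13.5%. The main transcript NFE2L2-201 went from 82.4 to 96.0 TPM to 117 to 131 TPM. For FTH1, the spread with EA sat mostly in FTH1-206, at 8636 ± 2432 TPM (SD, n = 9), against 10826 ± 867 TPM with E (n = 10), while FTH1-201 was at 4677 ± 451 TPM with EA and 4608 ± 327 TPM with E. These values rest on how the aligner shares reads among overlapping transcripts and were not tested.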
